A study of Mus musculus with 36 samples.

Results

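The levels of 9 genes of the embryonic lung mesenchyme, Foxf1, Foxf2, Tbx2, Tbx3, Tbx4, Tbx5, Tcf21, Wnt2 and Fgf10, were followed in mesenchymal stem cells (MSCs) cultured from 4 mouse tissues. The genes were taken by name from the 24411 genes listed for every RNA-seq library, and all 9 were found and tested. The cells came from C57BL6/J mice that were 8 weeks old and carried no allele, transgene or treatment named by the study, so that the groups differ in tissue of origin. MSCs of femoral bone marrow (fBM-MSCs) and of vertebral bone marrow (vBM-MSCs) were grown from marrow of crushed bone, and those of adipose tissue (A-MSCs) and of lung (P-MSCs) from minced tissue digested with collagenase. All were expanded in the same medium for at most 3 passages before RNA was taken, and the values therefore describe cultured cells, not the tissue. The 4 tissues were collected from the same 3 mice, but the sources used here do not say which libraries came from the same animal, so a p-value measures the spread between libraries.

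RNA-seq was analysed in 11 libraries, 2 for vBM-MSCs and 3 for each other tissue, with totals between 19569650 and 40517739 expected counts. Levels are given in TPM, transcripts scaled for their length and to the same total in every library, and differences as log2 fold changes from edgeR's quasi-likelihood test on the counts. A gene was called at an adjusted p under 0.05. Open chromatin (ATAC-seq) was given as 1 peak list per tissue, pooled over 6 samples that by their labels are 3 replicates on 2 sequencing runs each, so its values carry no replicate error. The 4 MSC surface markers checked were above 0 in every library. Of 13 lung epithelial markers at least 10 were at 0 in each P-MSC library, and they summed to between 0.72 and 1.35 TPM there, against 22.8 to 48.6 TPM in A-MSCs. In a bulk library, fewer cells that use a gene and less RNA per cell cannot be told apart.

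The forkhead factors Foxf1 and Foxf2 are effectors of hedgehog signals that the foregut epithelium sends to the mesenchyme around it. Tbx2 and Tbx3 are T-box repressors that keep progenitors dividing, and Tbx4 and Tbx5 are T-box activators that are needed for lung budding and also mark the hind limb and the fore limb. Tcf21 is a basic helix-loop-helix (bHLH) factor of lung, kidney and heart mesenchyme and of fibroblast progenitors. Wnt2 is a secreted ligand with which the mesenchyme specifies lung epithelium, and Fgf10 is the growth factor that drives branching of the airways.

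The sequences that follow are those of 5 open or promoter regions on which the later results turn. Bases are from RefSeq's assembly GRCm38.p6, the build of the peak lists, written from 5′ to 3′, and capitals mark letters that match a short motif searched on both strands. The motifs shown in capitals are the AP-1 motif TGANTCA, the forkhead motif TGTTTAC, the CAGCTG E-box that bHLH factors bind and the TATA box TATAAA. The first region is, of the sites near the 9 genes open in P-MSCs and in no other tissue, the strongest, 52922 bases after the start of Tbx5 (chr5:119887485-119887685, plus strand). The second lies in an intron of Fgf10, 49203 bases after its start, and was also open in P-MSCs alone (chr13:118763802-118764002, plus strand). The others are the 250 bases before the start sites of Tcf21 (chr10:22820144-22820393, minus strand), Foxf2 (chr13:31625566-31625815, plus strand) and Fgf10 (chr13:118714449-118714698, plus strand).
Tbx5 downstream site: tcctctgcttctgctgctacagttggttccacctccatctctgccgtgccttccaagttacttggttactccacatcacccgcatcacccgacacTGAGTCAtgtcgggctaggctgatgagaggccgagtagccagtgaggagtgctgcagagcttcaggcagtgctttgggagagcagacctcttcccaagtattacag
Fgf10 intronic site: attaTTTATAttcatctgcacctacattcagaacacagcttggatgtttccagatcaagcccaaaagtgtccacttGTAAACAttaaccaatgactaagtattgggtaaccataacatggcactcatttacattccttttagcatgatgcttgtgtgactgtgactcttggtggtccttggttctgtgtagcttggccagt
Tcf21 promoter: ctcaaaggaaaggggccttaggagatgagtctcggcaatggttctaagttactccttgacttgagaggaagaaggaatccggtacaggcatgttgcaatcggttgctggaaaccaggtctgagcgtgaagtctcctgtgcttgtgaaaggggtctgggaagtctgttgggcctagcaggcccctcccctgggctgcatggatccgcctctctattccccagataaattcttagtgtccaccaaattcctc
Foxf2 promoter: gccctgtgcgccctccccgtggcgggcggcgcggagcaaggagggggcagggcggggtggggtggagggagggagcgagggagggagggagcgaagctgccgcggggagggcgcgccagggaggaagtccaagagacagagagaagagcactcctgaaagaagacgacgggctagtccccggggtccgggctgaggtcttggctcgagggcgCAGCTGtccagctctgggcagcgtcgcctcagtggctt
Fgf10 promoter: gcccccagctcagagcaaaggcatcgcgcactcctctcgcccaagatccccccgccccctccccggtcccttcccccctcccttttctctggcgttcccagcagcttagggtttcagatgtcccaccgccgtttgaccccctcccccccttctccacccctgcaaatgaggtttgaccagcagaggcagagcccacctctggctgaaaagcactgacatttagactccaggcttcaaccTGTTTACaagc
In the Tbx5 site the AP-1 match lies from base -5 to base 1 of the summit, which is counted as 0. Of all 100749 open sites, 32.4% hold this motif within 100 bases of the summit, and of the 8012 sites open in P-MSCs alone 42.1% do. The Fgf10 intronic site holds a forkhead match from base -24 to base -18 of its summit, written GTAAACA on this strand, and 2.89% of all sites and 4.33% of those open in P-MSCs alone hold one. Its TATA box match lies at the window's edge, and 8.84% of all sites and 12.7% of those open in P-MSCs alone hold that motif. The Fgf10 promoter holds a forkhead match from base -11 to base -5 of the start, as do 3.17% of the 32851 promoters in the RefSeq table within the same 250 bases. The E-box of the Foxf2 promoter lies from base -38 to base -33, and 13.0% of promoters hold one. Also searched were the T-box motif AGGTGTGA, the GLI motif GACCACCCA of hedgehog signalling and the RUNX motif TGTGGT, which 1.12%, 0.225% and 14% of promoters hold. The first 2, which 0.479% and 0.0913% of all open sites hold, matched none of the 50 near the 9 genes. None of the 7 motifs matched the Tcf21 promoter, which says only that those letters are not in this window.

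Between the tissues the 9 genes fell into several patterns. Foxf1, Tbx2, Tbx4 and Tbx5 had their highest libraries in P-MSCs, with no overlap with any other tissue. Tcf21 was highest in A-MSCs and had no count in either marrow. Wnt2 and Fgf10 were highest in vBM-MSCs, and Wnt2 was lowest in the P-MSCs and in 1 fBM-MSC library. Of the 9 genes, 8 were called among the 4 tissues, all but Foxf2, where 60.6% of all 12509 genes tested were called.

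**Figure D1:**
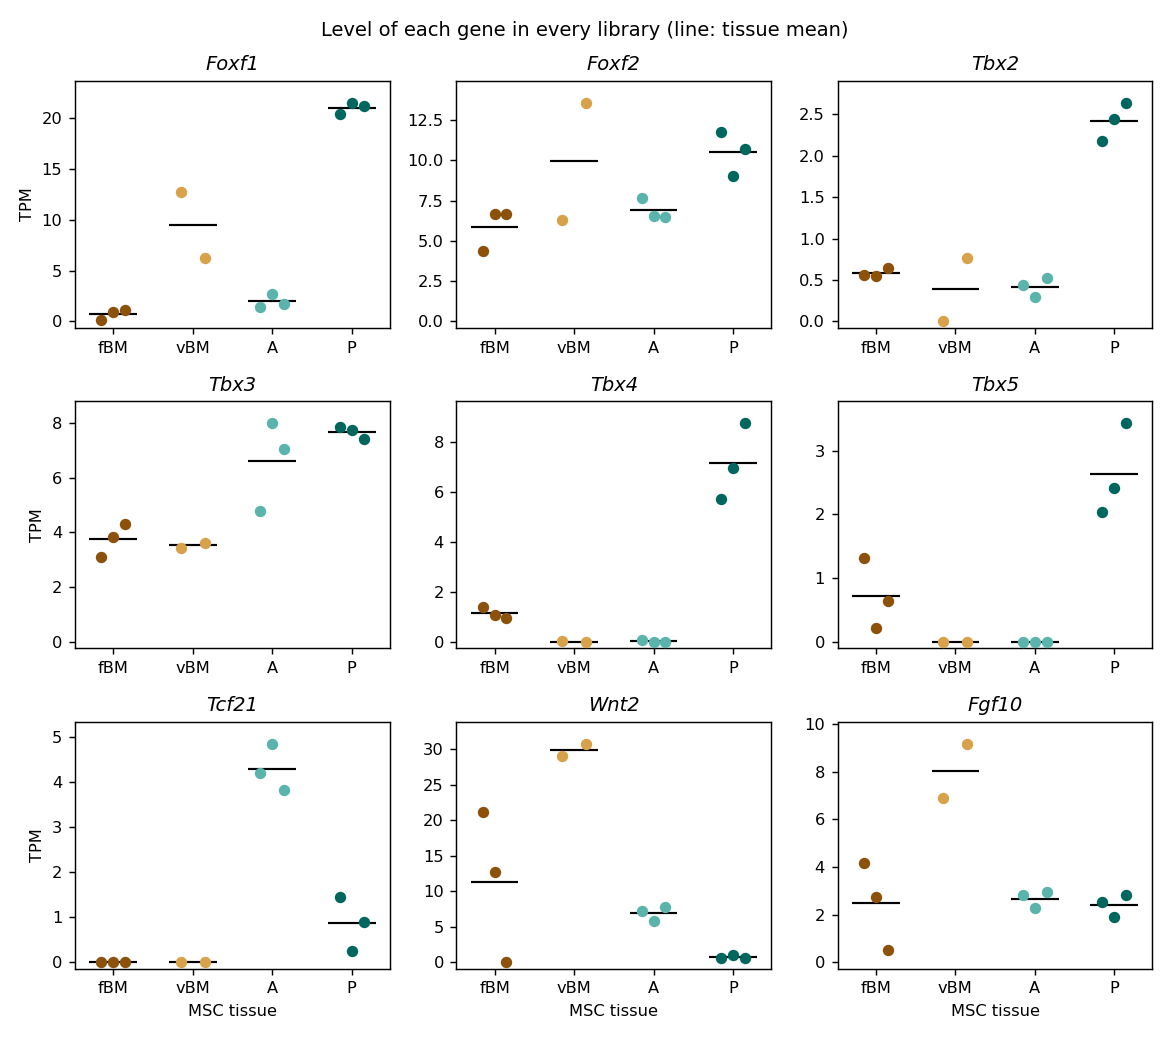
TPM of each gene (vertical axes, from 0) in every library, by tissue (horizontal axes); points are libraries and lines are tissue means. The 3 P-MSC libraries lie above all others for Foxf1, Tbx2, Tbx4 and Tbx5, while the mean of Wnt2 is 29.9 TPM in vBM-MSCs and 0.70 in P-MSCs.

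Foxf1 reached 20.4, 21.5 and 21.2 TPM in the P-MSC libraries. The vBM-MSC libraries had 12.7 and 6.24 TPM, the A-MSC libraries 1.46, 2.74 and 1.72, and the fBM-MSC libraries 0.14, 0.93 and 1.12. The order of the means was therefore P-MSCs (21.0 ± 0.58 TPM, SD, n = 3), vBM-MSCs (9.48 ± 4.58, n = 2), A-MSCs (1.97 ± 0.68, n = 3) and fBM-MSCs (0.73 ± 0.52, n = 3), with no overlap between neighbours. Foxf1 was higher in P-MSCs than in A-MSCs by 3.21 on the log2 scale (SE 0.49, adjusted p = 0.000768) and than in fBM-MSCs by 4.66 (SE 0.53, adjusted p = 3.41e-05). Against vBM-MSCs the difference of 1.03 (SE 0.51, adjusted p = 0.133) was not called. It was 1.76 without vBM-MSC replicate 1 and 0.54 without vBM-MSC replicate 2, and was called, at 1.03, without fBM-MSC replicate 1 (adjusted p = 0.0377). Both marrows differed from each other, with fBM-MSCs lower by -3.63 (SE 0.54, adjusted p = 0.00178), by -2.89 without vBM-MSC replicate 1 and by -4.10 without vBM-MSC replicate 2, both called. The A-MSCs also lay below the vBM-MSCs (log2 fold change -2.18, SE 0.50, adjusted p = 0.0092) and above the fBM-MSCs (1.45, SE 0.50, adjusted p = 0.0374). The former was -1.45 without vBM-MSC replicate 1 (adjusted p = 0.0875). The latter was not called without fBM-MSC replicate 1 or 2, A-MSC replicate 2 or 3, or any P-MSC replicate (adjusted p up to 0.131).

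Foxf1 has 2 exons on the plus strand of chromosome 8 (121084386 to 121088154), and its next gene, the long noncoding RNA gene Fendrr, is read in the other direction 1275 bases away. Fendrr had between 0.94 and 1.07 TPM in P-MSCs and at most 0.12 in any other library. On the other side, Mthfsd ran from 16.9 to 19.4 TPM in P-MSCs and from 9.20 to 12.1 elsewhere. Fendrr and Foxf1 do not overlap, so unstranded reads do not mix them.

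Foxf2, the paralogue of Foxf1 that is known from gut and palate mesenchyme, was nearer to even. It had 11.8, 9.01 and 10.7 TPM in P-MSCs and 7.66, 6.52 and 6.50 in A-MSCs. The marrow cells had 4.36, 6.64 and 6.65 TPM when taken from the femur and 6.31 and 13.6 when taken from vertebrae. All neighbours in the order of means overlapped. The only pair of tissues called was P-MSCs over fBM-MSCs (0.71 on the log2 scale, SE 0.25, adjusted p = 0.0339), and it was not called without P-MSC replicate 1 or 3 or fBM-MSC replicate 1 or 2 (adjusted p up to 0.112). The marrows differed by -0.69 (SE 0.27, adjusted p = 0.125), by -1.07 without vBM-MSC replicate 1 (adjusted p = 0.0422) and by -0.16 without vBM-MSC replicate 2. Wherever 1 vBM-MSC library is left out, the other stands alone and is assumed to vary like the other tissues. Its neighbour Foxc1, another forkhead gene 175239 bases away, had between 1.36 and 3.61 TPM in the marrow libraries and between 0.09 and 0.77 in the others.

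Tbx2 and Tbx4 lie side by side on chromosome 11, 44418 bases apart and both on the plus strand, Tbx2 from 85832615 to 85841948 and Tbx4 from 85886367 to 85916097. Tbx2 had 2.18, 2.44 and 2.64 TPM in P-MSCs. It had 0.56, 0.55 and 0.64 in fBM-MSCs, 0.44, 0.30 and 0.52 in A-MSCs, and 0.01 and 0.77 in the vBM-MSC libraries, which rest on 1 and 63 counts. Every P-MSC library thus exceeded every other library. By edgeR, the log2 fold change was 2.32 against A-MSCs (SE 0.78, adjusted p = 0.0414), 2.60 against vBM-MSCs (SE 0.92, adjusted p = 0.0436) and 1.93 against fBM-MSCs (SE 0.77, adjusted p = 0.0577, not called). These 3 values lay near the threshold. Without single libraries the adjusted p ran from 0.0013 to 0.116 against A-MSCs, from 0.00028 to 0.0944 against vBM-MSCs and from 0.00171 to 0.134 against fBM-MSCs, with 4, 3 and 2 of 11 fits under 0.05. The contrast with fBM-MSCs was called when either vBM-MSC library was left out. Without vBM-MSC replicate 2, vBM-MSCs are 1 library with 1 count, assumed to vary like the other tissues, and Tbx2 lay below P-MSCs by 7.04, A-MSCs by 4.72 and fBM-MSCs by 5.12 (adjusted p = 0.00028, 0.00567 and 0.00473). Without replicate 1 the difference from P-MSCs was 1.66. The call against A-MSCs was lost without any A-MSC or P-MSC replicate or fBM-MSC replicate 2, and that against vBM-MSCs without any A-MSC or P-MSC replicate or fBM-MSC replicate 1 or 2.

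Tbx4 had 5.73, 6.98 and 8.77 TPM in P-MSCs and 1.39, 1.07 and 0.96 in fBM-MSCs. In vBM-MSCs it had 0.02 and 0 TPM, which is 1 count in all, and in A-MSCs 0.07, 0 and 0, which is 4 counts in all. The gene was therefore present in lung and femoral cells and close to absent from the other 2 tissues. P-MSCs exceeded fBM-MSCs by 2.54 on the log2 scale (SE 0.55, adjusted p = 0.00271). As a ratio of counts scaled to library size, P-MSCs stood 377-fold over A-MSCs (exact 95% counting interval 147 to 1387) and 911-fold over vBM-MSCs (163 to 3.6e+04). The fBM-MSCs stood 57.3-fold over A-MSCs (22.01 to 212.6) and 138-fold over vBM-MSCs (24.5 to 5494). These intervals cover counting error only, and all counts of A-MSCs and vBM-MSCs came from replicate 1 of each. The fitted log2 fold change of P-MSCs, which depends on the prior count, ran from 7.56 to 11.8 against A-MSCs and from 8.33 to 11.8 against vBM-MSCs over the 11 fits without 1 library, all called (adjusted p up to 0.000614 and 0.000741). The fBM-MSCs were also called above both by edgeR, with an adjusted p of 0.000217 against A-MSCs and 0.00212 against vBM-MSCs.

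Tbx5, on the plus strand of chromosome 5 from 119834663 to 119885218, was likewise measured in lung and femoral cells. It had 2.04, 2.41 and 3.43 TPM in P-MSCs and 1.31, 0.21 and 0.64 in fBM-MSCs, and it had no count in any of the 5 vBM-MSC and A-MSC libraries. With 3 counts over a group as the floor, P-MSCs were at least 249-fold higher than A-MSCs and at least 150-fold higher than vBM-MSCs, and fBM-MSCs at least 59.6-fold and 35.96-fold higher. Replicate 1 held 66 of the 145 fBM-MSC counts, and without it fBM-MSCs were at least 41.7-fold higher than A-MSCs and 25.15-fold higher than vBM-MSCs. The adjusted p was 0.000606 for P-MSCs against A-MSCs and 0.000837 against vBM-MSCs. Between P-MSCs and fBM-MSCs, whose ranges did not overlap, the log2 fold change of 1.74 (SE 0.68, adjusted p = 0.0664) was not called. It was called without fBM-MSC replicate 1, at 2.52 with an adjusted p of 0.0226. Tbx4 marks the hind limb and Tbx5 the fore limb in the embryo, and the femoral cells carried counts of both, 186 and 145.

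Tbx3, on chromosome 5 from 119670862 to 119684724, was measured in every library at a moderate level. It had 7.84, 7.76 and 7.43 TPM in P-MSCs and 4.80, 7.99 and 7.05 in A-MSCs, and these ranges overlapped. The marrow libraries were lower, at 3.10, 3.85 and 4.31 in fBM-MSCs and 3.42 and 3.63 in vBM-MSCs, with no overlap with the other 2 tissues. P-MSCs exceeded fBM-MSCs by 0.90 (SE 0.20, adjusted p = 0.00276) and vBM-MSCs by 1.03 (SE 0.22, adjusted p = 0.00378). A-MSCs did so by 0.88 (SE 0.20, adjusted p = 0.00428) and 1.01 (SE 0.22, adjusted p = 0.00736). Between P-MSCs and A-MSCs the log2 fold change was 0.02 (SE 0.19, adjusted p = 0.946). An antisense gene, Tbx3os1, overlaps Tbx3, and without strand its reads cannot be told apart from those of Tbx3. Another, Tbx3os2, was listed at 0 in every library.

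Tcf21, on the minus strand of chromosome 10 from 22817263 to 22820143, was the one gene of the list highest in adipose cells. A-MSCs had 4.20, 4.85 and 3.82 TPM and P-MSCs 1.44, 0.24 and 0.90, which rest on 40, 5 and 21 counts. All 5 marrow libraries had no count. A-MSCs were at least 84.9-fold higher than fBM-MSCs and at least 63.2-fold higher than vBM-MSCs, and P-MSCs at least 18.4-fold and 13.7-fold higher, or 11.7-fold and 8.72-fold without P-MSC replicate 1. P-MSCs lay below A-MSCs in every library, by -2.50 on the log2 scale (SE 0.80, adjusted p = 0.0443), but the difference was not called without any one of these 6 libraries (adjusted p up to 0.118). Against the mean of the other tissues Tcf21 counted as higher in P-MSCs because 2 of those 3 tissues were at 0. On log2(TPM + 1) the difference from the other 8 libraries was -0.06 (two-sided exact permutation test, p = 0.879).

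Wnt2, on the minus strand of chromosome 6 from 17988940 to 18030445, went the other way from Foxf1 in the lung cells. It had 0.62, 0.95 and 0.53 TPM in P-MSCs, on 33, 39 and 24 counts. A-MSCs had 7.16, 5.82 and 7.72 TPM, vBM-MSCs 29.1 and 30.7, and fBM-MSCs 21.1, 12.7 and 0.10. Replicate 3 of the fBM-MSCs, with 5 counts against 533 and 527 in the others, fell below every P-MSC library. Its total of 37180657 counts was the largest of the 3, and its 6 osteoblast markers summed to 2484 TPM against 465 and 744. Their part in the result was not tested. P-MSCs were lower than vBM-MSCs by -5.50 on the log2 scale (SE 1.16, adjusted p = 0.0031), than fBM-MSCs by -4.14 (SE 1.08, adjusted p = 0.00794) and than A-MSCs by -3.50 (SE 1.06, adjusted p = 0.0264). The contrast with fBM-MSCs was called in all 11 fits without 1 library, from -3.26 without fBM-MSC replicate 1 to -4.73 without fBM-MSC replicate 3 (adjusted p = 1.03e-06), with an adjusted p of at most 0.0356. The contrast with A-MSCs was not called without A-MSC replicate 1 or 3 or any P-MSC replicate (adjusted p up to 0.0913), and it lay between -3.77 and -3.33 in all 11 fits. The other differences between tissues were not called with all libraries, including vBM-MSCs over A-MSCs (adjusted p = 0.167). Without fBM-MSC replicate 3, A-MSCs were lower than vBM-MSCs by -2.00 (adjusted p = 0.000306) and than fBM-MSCs by -1.23 (adjusted p = 0.00454).

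Fgf10, the longest of these genes at 77875 bases on chromosome 13 (118714699 to 118792573), was highest in vBM-MSCs too. The vBM-MSC libraries had 6.91 and 9.17 TPM. P-MSCs had 2.53, 1.88 and 2.81 TPM and A-MSCs 2.83, 2.26 and 2.93. The femoral libraries had 4.18, 2.75 and 0.51 TPM. The last 3 tissues overlapped, and replicate 3 of the fBM-MSCs was again the lowest library of all. P-MSCs were lower than vBM-MSCs by -1.81 (SE 0.57, adjusted p = 0.0255), and the difference was not called without any P-MSC or vBM-MSC replicate (adjusted p up to 0.0858). The same contrast gave -1.47 for A-MSCs (SE 0.57, adjusted p = 0.0792) and -1.66 for fBM-MSCs (SE 0.57, adjusted p = 0.0793), both not called with all libraries. Both were called without fBM-MSC replicate 3 (-1.47 and -1.16, adjusted p = 0.00164 and 0.02487) and without fBM-MSC replicate 1 (-1.47 and -2.30, adjusted p = 0.0448 and 0.0235).

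**Figure D2:**
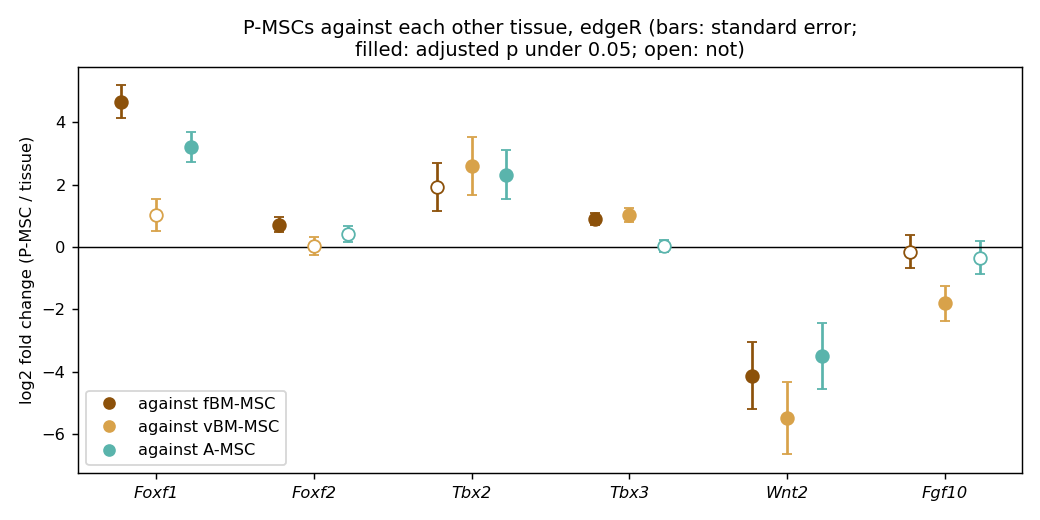
Log2 fold change of P-MSCs over each of the other tissues from edgeR (vertical axis) for the 6 genes with over 4 counts in every tissue (horizontal axis); points are estimates, bars are standard errors, and filled points have an adjusted p under 0.05. Foxf1 and Tbx2 lie above 0 against all 3 tissues and Wnt2 below 0 against all 3, from -5.50 to -3.50.

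Counted by comparison, 6 of the 9 genes were called between P-MSCs and A-MSCs, where 30.9% of all genes tested were. Foxf1, Tbx2, Tbx4 and Tbx5 were higher in P-MSCs, a direction in which 14.9% of all genes were called, and Tcf21 and Wnt2 were lower (16% of all genes). That count was 3 without A-MSC replicate 1, A-MSC replicate 3 or any one P-MSC replicate, where 21.6% to 24.3% of all genes were called, the calls of Foxf1, Tbx4 and Tbx5 being the ones made in all 11 fits. Against fBM-MSCs 6 genes were called (47.7% of all genes), with Foxf1, Foxf2, Tbx3, Tbx4 and Tcf21 higher (23% of all genes) and Wnt2 lower (24.7%). Against vBM-MSCs 7 were called (38.7% of all genes), with Tbx2, Tbx3, Tbx4, Tbx5 and Tcf21 higher (17.7%) and Wnt2 and Fgf10 lower (21%). These 3 comparisons share the P-MSC libraries. Between A-MSCs and fBM-MSCs 5 genes were called (40.9% of all genes), Foxf1, Tbx3 and Tcf21 being higher in A-MSCs (20.3%) and Tbx4 and Tbx5 lower (20.6%). Between A-MSCs and vBM-MSCs 3 were called (25.6% of all genes), Tbx3 and Tcf21 being higher in A-MSCs (12.4%) and Foxf1 lower (13.2%). That count was 5 without fBM-MSC replicate 3, with Wnt2 and Fgf10 added (29.1% of all genes). Between the 2 marrows 3 were called (12.8% of all genes), Tbx4 and Tbx5 being higher in fBM-MSCs (5.24%) and Foxf1 lower (7.56%).

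Against the mean of the other 3 tissues, 7 of the 9 genes were called in P-MSCs (44.6% of all genes tested), 6 higher (22.3%) and 1 lower (22.3%). The median log2 fold change of the 9 genes was 2.28, or 1.92 with groups under 3 counts set at that floor, and that of all genes tested was -0.01. Foxf1 was higher by 2.97 (SE 0.35, adjusted p = 5.2e-05), Tbx2 by 2.28 (SE 0.58, adjusted p = 0.00756) and Tbx3 by 0.65 (SE 0.16, adjusted p = 0.0056), and Wnt2 was lower by -4.38 (SE 1.02, adjusted p = 0.00471). Foxf2 (0.39, SE 0.20, adjusted p = 0.144) and Fgf10 (-0.77, SE 0.45, adjusted p = 0.185) were not called with all libraries. The value of Tbx2 was 3.76 without vBM-MSC replicate 2. Foxf2 was called without vBM-MSC replicate 2 (0.56, adjusted p = 0.0218) and Fgf10 without fBM-MSC replicate 3 (-0.94, adjusted p = 0.00345). Over the 11 libraries, the two-sided exact permutation test gave p = 0.00606 for Foxf1, Tbx2, Tbx4 and Tbx5, 0.0303 for Wnt2 and 0.0424 for Tbx3. The first is the smallest that 165 choices of 3 libraries allow and restates that the P-MSCs do not overlap the rest, and the test treats libraries of 1 tissue as independent. It gave 0.0848 for Foxf2 and 0.515 for Fgf10.

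Markers of other cells were also compared between the tissues, and their part in the results was not tested. The 8 markers of dividing cells were all higher in P-MSCs than in the mean of the other tissues, and summed to between 746 and 826 TPM in P-MSCs, against at most 404 in A-MSCs and at most 83.3 in either marrow. The 8 mesothelial markers summed to between 110 and 160 TPM in A-MSCs, where Tcf21 was highest, with none at 0, and to between 76.2 and 98.8 in P-MSCs with at least 4 at 0. The 6 osteoblast markers summed to between 465 and 2484 TPM in fBM-MSCs and to between 38.6 and 503 in vBM-MSCs, against at most 5.67 in A-MSCs and P-MSCs. The 6 adipocyte markers summed to between 4.94 and 6.75 TPM in P-MSCs and to at least 27.2 in every other library. They reached 76.97 in fBM-MSC replicate 3, the library lowest in Wnt2, and 73.4 in vBM-MSC replicate 2, the library highest in Wnt2. In A-MSCs they ran from 46.5 to 163 TPM. The 8 smooth muscle markers ran from 1136 to 1609 TPM in fBM-MSCs, 4861 to 5721 in P-MSCs, 7121 to 8843 in vBM-MSCs and 14276 to 14798 in A-MSCs. The 8 endothelial markers summed to 55.5 TPM in A-MSC replicate 1 and to at most 8.29 in any other library, and the 8 of haematopoietic cells to at most 16.9 in P-MSCs and at most 52.1 TPM elsewhere. The 4 skeletal muscle markers were at 0 in every library.

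The genes whose levels followed each of the 9 most closely over the 11 libraries were found by Pearson's r of log2(TPM + 1), given here as a description. Libraries of 1 tissue are not independent points in these correlations, and any gene that stands apart in the same tissue scores high. Tbx4 and Tbx5 were among each other's nearest 3 of all 12509 genes (r = 0.973, rho = 0.953), and each was the other's nearest with 0.1 in place of 1 added. Xrn2, a nuclear exonuclease gene, was nearest to both at r = 0.988 and 0.974, and Dcbld1 and Mdga2 completed the nearest 3 of Tbx4 and of Tbx5. Tbx2 was nearest to Ddx46, Ncl and Msh6 (r between 0.980 and 0.987), and its r with Tbx4 was 0.924. Tbx3 was nearest to Shmt2, Rpl8 and Ak4. Foxf1 was nearest to C1qtnf3, which ran from 274 to 392 TPM in P-MSCs and from 93.2 to 132 in vBM-MSCs against at most 32.0 elsewhere, and then to Acap3 and Ccdc59. Foxf2 was nearest to Ints8, Pitpnb and Wwc2, and Tcf21 to Nedd4l, Ugt1a7c and Alx1. Wnt2 was nearest to Lrrn4cl, Medag and Fgf18, another secreted growth factor, and Fgf10 to Gm5595, Uap1 and Socs5. Several of these ranks moved with 0.1 in place of 1 added. Ddx46, Ncl and Msh6 then ranked 41, 22 and 34 for Tbx2, Xrn2 ranked 9 for Tbx4 and 5 for Tbx5, Dcbld1 ranked 15, Mdga2 25, Alx1 16 and Fgf18 18, while Ints8, Shmt2, Lrrn4cl and Gm5595 kept rank 1 and Ccdc59 took it for Foxf1. Among the 9 genes, Wnt2 and Fgf10 had an r of 0.817, while the r of Foxf1 with Wnt2 was -0.37.

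**Figure D3:**
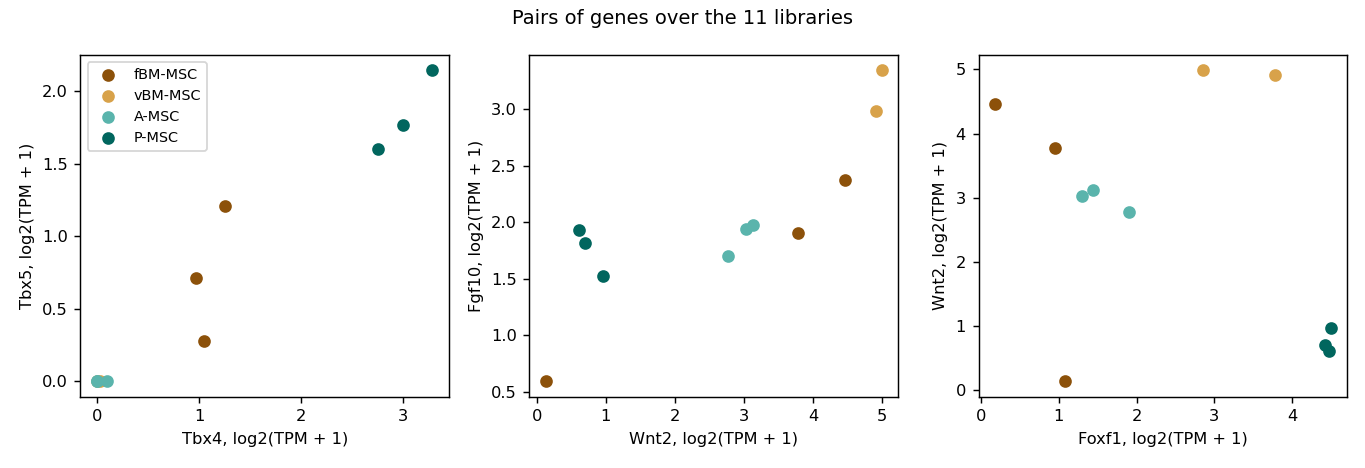
Levels of pairs of the genes over the 11 libraries, as log2(TPM + 1) on both axes and coloured by tissue. Tbx4 and Tbx5 are near 0 together in vBM-MSCs and A-MSCs and are higher in fBM-MSCs and highest in P-MSCs (r = 0.973), Wnt2 and Fgf10 share their highest libraries in vBM-MSCs (r = 0.817), and Foxf1 and Wnt2 do not follow each other (r = -0.37).

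Other genes of the same families and pathways are described for P-MSCs against the mean of the other tissues, by counts of calls and by the median, beside -0.01 for all genes. Of all genes tested, 22.3% were called higher and 22.3% lower. The share called exceeded 44.6% for the bHLH genes (8 of 12) and the genes around Fgf10 (8 of 16), and was below it in the other 6 lists. Of 13 other T-box genes 5 were tested and 1 was called, Tbx20, which had between 0.18 and 0.55 TPM in P-MSCs, 155 counts in all, 7 counts in fBM-MSCs and none in the others. Their median was 0.28. Of 42 other forkhead genes 21 were tested, with 4 higher, 4 lower and a median of 0.07. Foxl1, a hedgehog-responsive factor of gut mesenchyme, was higher by 3.10 (SE 0.53, adjusted p = 0.00066), and Foxm1, a factor of the cell cycle, by 2.76 (SE 0.21, adjusted p = 2.77e-06). Foxd1 was lower by -3.19 (SE 1.18, adjusted p = 0.0447), with 5.39 TPM in vBM-MSCs, 0.82 in fBM-MSCs and 0.04 in P-MSCs, but A-MSCs had 1 count against 6 in P-MSCs. Of 12 bHLH genes tested 7 were higher and 1 lower, with a median of 0.50. Those higher included the inhibitors Id4 (1.78, SE 0.31, adjusted p = 0.000768) and Id2 (1.26, SE 0.25, adjusted p = 0.00159), and Hand2 had no count in P-MSCs against at most 0.96 TPM elsewhere.

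Of 7 hedgehog pathway genes tested none was higher and 2 were lower, both co-receptors of the ligand, with a median of -0.27. Gas1 fell by 4.22 on the log2 scale (SE 0.36, adjusted p = 5.18e-06) and Boc by 1.22 (SE 0.28, adjusted p = 0.00428). Boc averaged 2.53 TPM in P-MSCs and 2.89 in A-MSCs, whose ranges overlapped, against 7.77 in fBM-MSCs and 7.14 in vBM-MSCs. Of 25 genes around Wnt2, its receptors and the signalling downstream, 2 were higher and 6 lower, with a median of -0.49. Nkd1 and Nkd2, feedback inhibitors of Wnt signalling, were lower by -2.83 (SE 0.50, adjusted p = 0.000866) and -2.45 (SE 0.40, adjusted p = 0.000523). Wnt7b had no count in P-MSCs and between 0.12 and 1.73 TPM in fBM-MSCs. Of 16 genes around Fgf10 1 was higher and 7 were lower, with a median of -0.36. Fgf18 (-5.64, SE 1.12, adjusted p = 0.00176), Fgf1 (-3.62, SE 1.15, adjusted p = 0.0235) and Fgfr3 (-1.92, SE 0.57, adjusted p = 0.0181) were the lowest of them.

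Of 14 other genes of lung fibroblasts that were tested, 4 were higher and 2 lower. Their median was 0.13 as fitted and -0.62 with groups under 3 counts set at that floor, so its sign rests on 3 genes with few or no counts in a tissue. Against fBM-MSCs 7 were higher and 4 lower (47.7% of all genes called), with a fitted median of 1.64. Against vBM-MSCs 1 was higher and 5 were lower (38.7%), with a median of -1.94. Against A-MSCs 3 were higher and 2 lower (30.9%), with a median of -0.56. Hoxb5 was higher by 3.25 (SE 0.46, adjusted p = 0.000167), and Bmp4 (-2.23, SE 0.42, adjusted p = 0.00131) and Lgr6 (-1.98, SE 0.50, adjusted p = 0.00772) were lower. Lgr6 had 41.5 TPM in fBM-MSCs and 1.02 in P-MSCs, but 0.41 in A-MSCs. Of 10 limb identity genes tested 2 were higher and none lower, with a median of -0.09. They were Meis1 (1.88, SE 0.27, adjusted p = 0.000176) and Prrx1 (0.41, SE 0.13, adjusted p = 0.024).

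In the ATAC-seq lists, a summit is the position of highest signal in a peak, and its fold enrichment is the signal over the genome-wide background. Values in all 4 lists moved in the same step of 0.368, and a summit counted as open at a −log10 q of at least 7, the threshold of the study. The lowest fold enrichment past this threshold was 5.52 in every list, so sites at or near that value passed narrowly. Summits of different tissues within 300 bases of the next were joined into 1 site, placed at its strongest summit, and each was assigned to the nearest protein-coding gene. This gave 50 sites within 50 kb of the 9 genes, among 100749 in all. Of the 50, 12 were open in P-MSCs alone, against 7.95% of all sites, and 13 were open in all 4 tissues, against 30.8%. Of those in P-MSCs alone, 6 were near Tbx5, 3 near Fgf10, 2 near Tbx4 and 1 near Foxf1, with none near the other genes. Open in P-MSCs with no summit of any −log10 q listed in another tissue were 10 of the 50, against 2.59% of all sites. Open in another tissue alone were 2 of the 50 for fBM-MSCs (11.1% of all sites), 2 for vBM-MSCs (7.07%) and 4 for A-MSCs (10.3%). Those listed in no other tissue were 1, 0 and 2 of the 50, against 5.39%, 2.68% and 3.5% of all sites. In all, 39 of the 50 were open in P-MSCs, 30 in A-MSCs, 26 in fBM-MSCs and 20 in vBM-MSCs, against 59.4%, 65.3%, 59.9% and 54.4% of all sites.

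**Figure D4:**
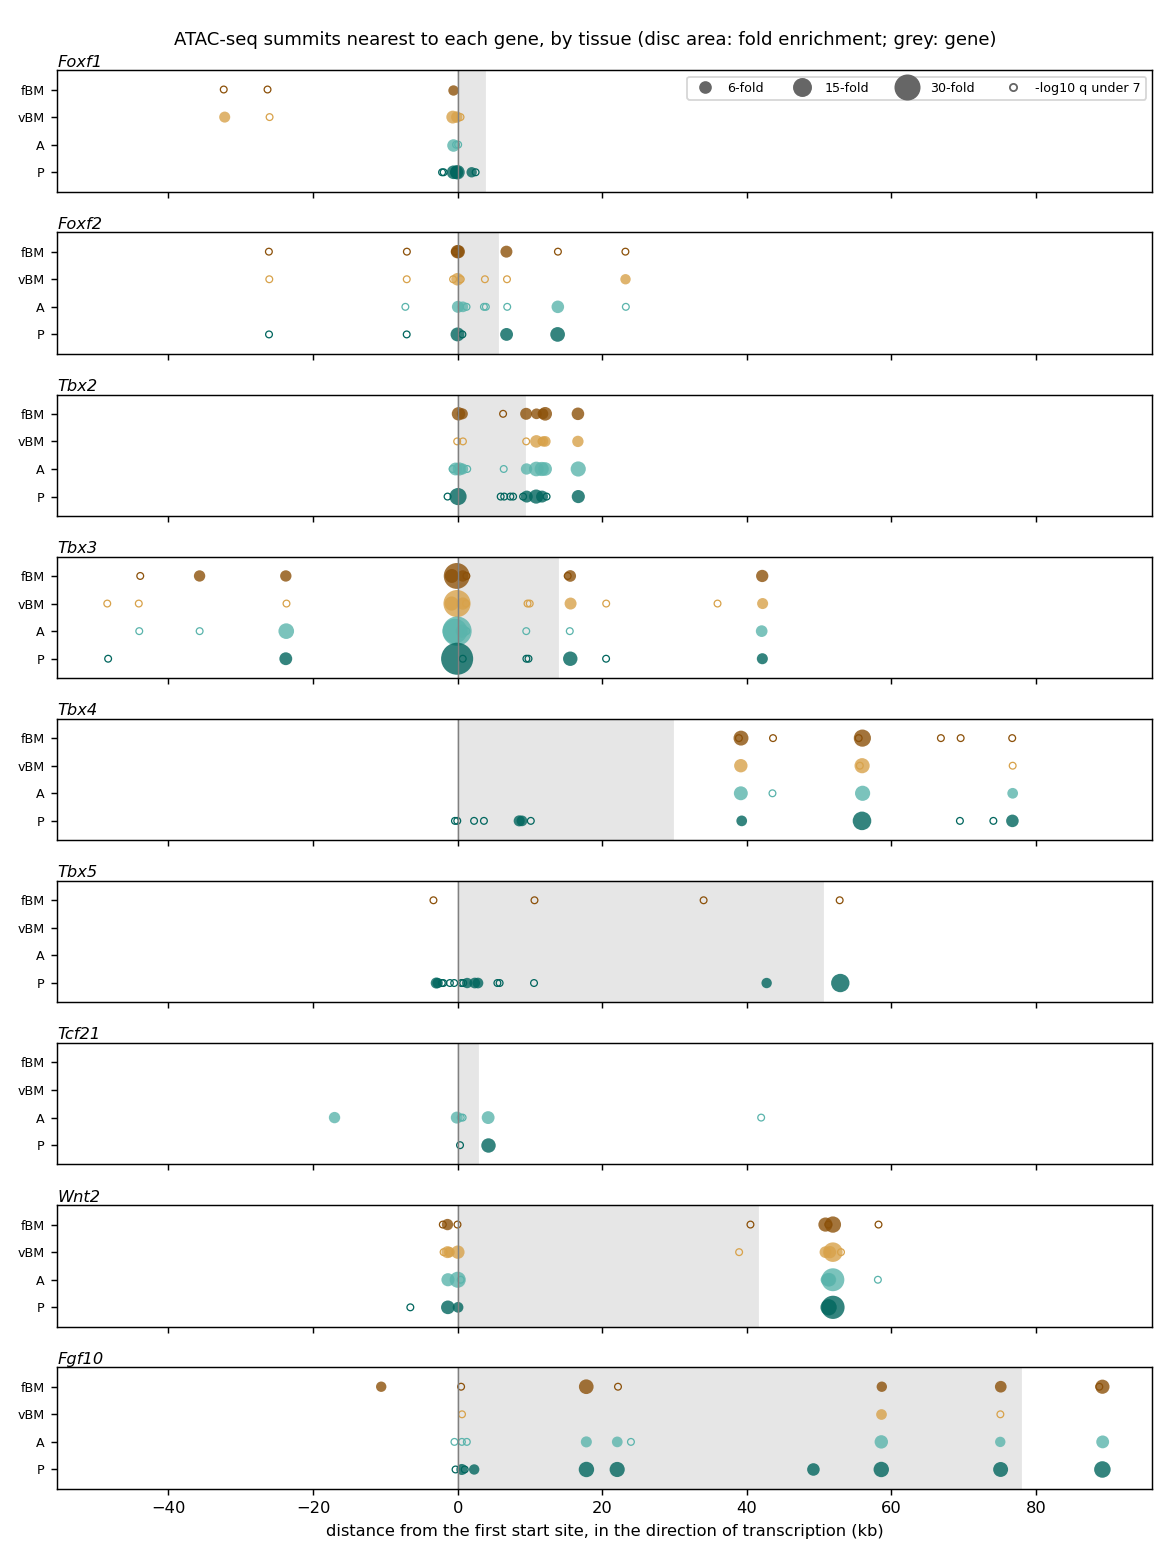
Summits nearest to each gene within 50 kb, by distance from its first start site in kb (horizontal axis, transcription to the right) and by tissue (rows); disc area is the fold enrichment, open rings are summits with a −log10 q under 7, and grey marks the gene. All 6 Tbx5 sites past the threshold lie in the P-MSC row, the Tcf21 sites lie in the A-MSC and P-MSC rows only, and Tbx3 has a summit of 34.2-fold or more at its start in every row.

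Tbx5 had 6 open sites, all of them open in P-MSCs alone. The strongest had a fold enrichment of 17.3 and is the downstream site shown above, which lies 52922 bases after the start and beyond the end of the gene. Its place was listed at 3.68-fold in fBM-MSCs, under the threshold, and not listed in the other 2 tissues. The other 5 had between 5.52 and 6.25-fold and lay at -2960, 1315, 2360, 2808 and 42734 bases from the start, the third of these in an exon and the others after the start in introns. Within 1 kb of the start only P-MSCs had any summit, 3 of them up to 5.15-fold, all under the threshold. The A-MSCs and vBM-MSCs, where the gene had no count, listed no summit anywhere near it. The fBM-MSCs, with 145 counts, had summits near Tbx5 only under the threshold. The gene Gm5563 on the minus strand starts 2677 bases before Tbx5, near the site at -2960. It is not among the genes listed for the RNA-seq libraries.

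Tbx4 had 5 sites, and those beyond the gene were shared while those inside it were not. In the gene, P-MSCs alone had sites of 6.25-fold and 5.89-fold in the intron at -1889 and -1503 bases from the second start site, with nothing listed there in the other tissues. Beyond the end, a site 28789 bases after that start was open in all 4 tissues, lowest in P-MSCs at 5.89-fold and highest in fBM-MSCs at 11.4. Another, 45524 bases after it, was highest in P-MSCs at 17.7-fold, with 15.1 in fBM-MSCs and 11.8 in the other 2 tissues. The last, 66327 bases after it, was open in P-MSCs at 8.09-fold and in A-MSCs at 5.89. No tissue had a summit past the threshold within 1 kb of either start, and P-MSCs had 3 under it. Tbx2 had 7 sites, none of them open in P-MSCs alone. At its start P-MSCs had 15.1-fold, fBM-MSCs 9.20 and A-MSCs 8.83, and vBM-MSCs reached 4.78, under the threshold. The noncoding gene 2610027K06Rik starts 227 bases from Tbx2 and had at most 0.24 TPM.

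Foxf1 had a site at -567 bases from its start that was open in all 4 tissues, highest in P-MSCs at 9.56-fold and lowest in fBM-MSCs at 5.52. At the site around the start, placed at -23 bases, P-MSCs had 10.7-fold and vBM-MSCs 6.62, the 2 tissues with the highest Foxf1 RNA. A-MSCs were listed there at 5.15-fold, under the threshold, and fBM-MSCs were not listed. In its intron, 1937 bases after the start, P-MSCs alone had a site of 5.52-fold, the lowest value past the threshold. The last site, at -32220 bases, was open in vBM-MSCs alone at 6.25-fold and listed under the threshold in fBM-MSCs at 3.68. Foxf2 had a site around its start in every tissue, highest in P-MSCs at 9.93-fold and lowest in A-MSCs at 7.36. The summits of P-MSCs and both marrows lay inside the promoter shown above, at -22, -27 and -28 bases, and that of A-MSCs lay 31 bases after the start. Sites 6765 and 13823 bases after its start were open in P-MSCs and in 1 other tissue each.

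Tbx3 had the strongest promoter of the list. At -74 bases from its first start it had 52.6-fold in P-MSCs and 43.8 in A-MSCs, above 37.5 in vBM-MSCs and 34.2 in fBM-MSCs. Both marrows were also the lower tissues in Tbx3 RNA, though 1 list per tissue allows no test of the fold enrichments. Both marrows had a second summit near -839 bases, at 9.93 and 10.3-fold. A-MSCs and P-MSCs had no separate summit there, but their promoter peaks (119669696 to 119672182 and 119669739 to 119671292) also cover this position.

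Tcf21 had 3 sites, all open in A-MSCs, and no summit was listed near it in either marrow, where it had no count. Its promoter, shown above, had a summit at -120 bases in A-MSCs at 7.36-fold. In P-MSCs a summit of 4.05-fold, under the threshold, was listed within 1 kb of the start. A site 4261 bases after the start, beyond the end of the gene, was open in both, at 10.7-fold in P-MSCs and 8.46 in A-MSCs. The third, at -17030 bases, was listed in A-MSCs alone at 6.62-fold.

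Wnt2 and Fgf10, whose RNA was highest in vBM-MSCs, did not have their highest fold enrichment there at any site. At the start of Wnt2, 8 bases in, A-MSCs had 13.2-fold, vBM-MSCs 9.20 and P-MSCs 5.89. In fBM-MSCs the site was listed at 2.94, under the threshold. A site at -1352 bases was open in all 4 tissues and highest in P-MSCs at 9.56-fold. So was one 51909 bases after the start, beyond the end of the gene, highest in P-MSCs at 27.6-fold and lowest in fBM-MSCs at 13.6. Fgf10 had 9 sites, of which 8 were open in P-MSCs, 5 in A-MSCs, 5 in fBM-MSCs and 1 in vBM-MSCs, the tissue with the most Fgf10 RNA. The sites 572, 2286 and 49203 bases after the start passed the threshold in P-MSCs alone, the last at 8.09-fold being the intronic region shown above. The site at 572 had 6.25-fold in P-MSCs and was listed under the threshold in every other tissue, at 4.41 to 5.15-fold, while the other 2 sites were listed in P-MSCs alone. At the other 5 sites that P-MSCs shared they had the highest fold enrichment, between 11.4 and 13.98. The nearest coding genes on either side are not close, Nnt lying 542953 bases beyond the end of Fgf10 with between 12.1 and 17.96 TPM in every library.

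A summit past the threshold within 1 kb of a start was found for 6 of the 9 genes in P-MSCs (89.2% of the genes tested by RNA-seq), 6 in A-MSCs (90%), 4 in fBM-MSCs (87.5%) and 4 in vBM-MSCs (89.4%). Foxf1, Foxf2 and Tbx3 had one in every tissue, Tbx2 in all but vBM-MSCs and Wnt2 in all but fBM-MSCs. Tcf21 had one in A-MSCs alone and Fgf10 in P-MSCs alone, by the same narrow margin at 572 bases, and Tbx4 and Tbx5 had none. With every deposited summit counted, P-MSCs had one at all 9 genes, A-MSCs at 7 and either marrow at 6. The share of all genes was not worked out for that setting, so these counts have no baseline.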

How the data were processed

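RNA-seq values came from 11 libraries made by Smart-seq2, a method that does not mark the strand. The authors ran RSEM with STAR against mm10 and deposited for each gene the expected count, which is not normalized, and the TPM, scaled by RSEM for transcript length and library size. ATAC-seq reads went through TrimGalore, Bowtie and Picard, were moved to the Tn5 cut, and were pooled by tissue for MACS2. For each summit the authors deposited a fold enrichment, a ratio to the genome-wide background, with a −log10 q and an offset in bases. The versions of these tools are not given in the sources used here. The vBM-MSC replicate numbered 3 was not analysed here.

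All 99 expected counts of the 9 genes were whole numbers, and the other genes' were rounded. They were tested with edgeR 4.0.16 (R 4.3.3; TMM, quasi-likelihood F test, two-sided, Benjamini-Hochberg adjustment over all genes tested), in 1 model of the 4 tissues for the 12509 genes that reached a CPM of 1 in 2 or more libraries. The test was checked on simulated data. Each SE is the absolute log2 fold change divided by the square root of the test's F statistic. Since the mice behind the libraries are not stated, the libraries were treated as independent. A gene with no count in a tissue was set against a floor of 3 counts over that tissue. Curated RefSeq transcripts of GRCm38 gave start sites, and summits were assigned among protein-coding genes. Promoter entries were found for 5 of the 9 genes (Foxf2, Tbx4, Tcf21, Wnt2 and Fgf10), and motifs were searched on both strands.

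The 9 genes, the gene lists and the motifs were chosen with earlier results of these data known. Named beside the 9 genes are up to 3 called genes per list with the largest change in P-MSCs against the mean of the other tissues, the 3 genes most like each, its neighbours, and its summits within 1 kb or of highest fold enrichment. Alternatives were other scalings, tests and filters, a replicate block, a model of 2 tissues, each library left out in turn, and other windows and thresholds for summits.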

Additional observations from a re-analysis of the deposited data

How the results depend on the processing

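Of 1147 refitted log2 fold changes of the 9 genes under the alternatives, 1056 stayed on their side of the threshold, 58 lost their call, 33 gained one, and no called one changed sign. Leaving out 1 library at a time gave 3 to 6 genes called between P-MSCs and A-MSCs (21.6% to 34.9% of all genes tested), 2 to 5 between A-MSCs and vBM-MSCs (18.3% to 29.1%), and 7 to 8 in P-MSCs against the other tissues' mean (34.5% to 47.1%). The model of only 2 tissues called 5 genes between A-MSCs and vBM-MSCs (21.3% of all genes tested) and 1 between the marrows (2.53%, against 12.8% in the model of all 4), on fewer libraries. With limma-trend on log2(TPM + 1), Tcf21 in P-MSCs against the mean of the other tissues was 0.04 (adjusted p = 0.864).

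Counting every deposited summit in place of those with a −log10 q of at least 7 gave 79 summits nearest to the 9 genes in P-MSCs, 60 in A-MSCs, 57 in fBM-MSCs and 50 in vBM-MSCs, against 41, 34, 28 and 23. In the same order, the whole lists held 100571, 114477, 110792 and 101543 summits. Of these, 64057, 71345, 64300 and 59536 passed the threshold.

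Over 15 pairs of libraries with the same replicate number, the correlation of deviations from the tissue mean had a median of 0.0073 and 1 exceeded 0.1. Over 30 pairs with other numbers the median was -0.0045 and 1 exceeded 0.1. With means over 2 or 3 libraries, such values cannot show whether libraries of the same number share a mouse. With the replicate block, 4 of the 9 genes were called between P-MSCs and A-MSCs (30.9% of all genes tested), 6 against fBM-MSCs (47%), 5 against vBM-MSCs (36.8%) and 7 against the mean (43.8%). With 2 or 3 libraries per tissue, 1 library could move an adjusted p far, as for Wnt2 between A-MSCs and fBM-MSCs, from 0.608 to 0.00454 without fBM-MSC replicate 3. Where 1 of the 2 vBM-MSC libraries is left out, the spread of the other comes from the other tissues.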
